A study of Solanum lycopersicum with 12 samples.

Results

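Laser-captured epidermis and cortex (EC) of tomato roots that expressed AtHMA4 were compared with the same tissue of wild-type roots. AtHMA4 is a metal pump of Arabidopsis thaliana that loads Zn into the xylem, and in the transgenic plants it was driven by the constitutive CaMV 35S promoter. The members are the 6 EC arrays among the 12 root arrays of the series. They comprise 3 arrays of homozygous transgenic line 4 (L4 EC) and 3 of the wild type (WT EC), both var. Beta. All plants received 5 µM Zn, and the sample labels give 15 days of this supply and plants 25 days old, whereas the study's methods give a shorter exposure and younger plants. Each array held roots pooled from several plants of 1 of 3 independent experiments, and a single transgenic line was measured, so that line and transgene cannot be told apart. The transgene's own transcript was not analysed here.

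The EC is the outer root. Epidermal cells take up iron, phosphate and other ions from the medium, and the cortex passes them on to the stele. Tomato acquires iron by the reduction strategy, in which the bHLH factor FER is required for the switching on of the ferric reductase and the iron transporter, and ethylene promotes this response. Ethylene is made from an amino acid precursor by ACC synthases (ACS) and ACC oxidases (ACO). Its receptors (ETR) restrain the pathway until ethylene binds them, after which EIN3-like factors (EIL) switch on ethylene response factors (ERF).

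The deposited values are on a log2 scale, so a difference of 1 is a 2-fold difference in signal. Of 10209 probe sets, 108 array controls were left out. The test was then run on the 5080 probe sets whose mean over the 6 EC arrays reached 4. A single gene symbol was attached to 592 of them. The lower quartile of all values on an EC array lay at 2.39 to 2.81, and the size of a difference is uncertain where one side lies near it. Precision is limited by the small number of arrays.

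One array, L4 EC replicate 2, was unlike the rest of the EC arrays. The SD over its values was 3.04, against 3.41 to 3.47 for the other 5, and its 27 hybridisation control probe sets averaged 13.9, against 9.81 and 11.0 on the other L4 EC arrays and 9.97 to 10.5 on the WT EC arrays. Of the probe sets tested, 55.3% lay below the range of the WT EC arrays on this array, whereas 28.1% and 33.6% did so on L4 EC replicates 1 and 3. The median difference from the WT EC mean was -0.82 on it and -0.035 and -0.068 on the others. The shift depended on the level. It was -1.56 where the mean was 6 to 8, and -0.22 for those above 12, while replicates 1 and 3 stayed between -0.16 and 0.043 in every class of level. The changes of genes and the counts and medians of gene lists are therefore given with all 6 arrays and without this array, and group means are over all arrays.

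**Figure D1:**
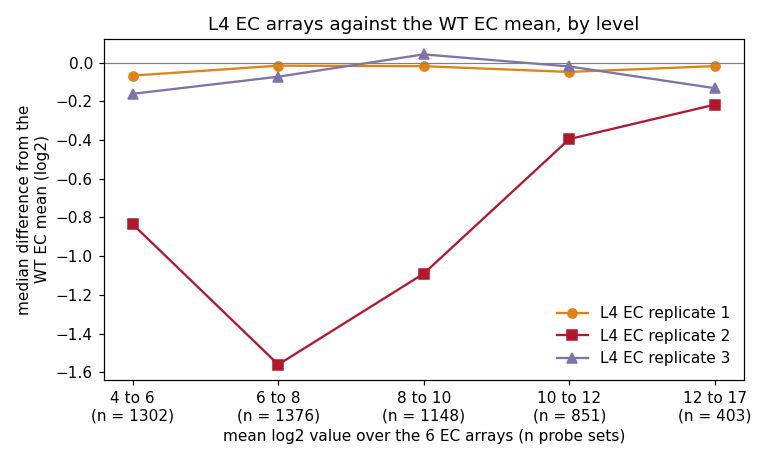
Median difference of each L4 EC array from the mean of the 3 WT EC arrays (log2, vertical axis), for probe sets grouped by their mean log2 value over the 6 EC arrays (horizontal axis). L4 EC replicate 2 lies at -1.56 for levels of 6 to 8 and at -0.22 above 12, while the other L4 EC arrays lie between -0.16 and 0.043.

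Other arrays differed in markers of further cell types. The mean level of 9 genes of green tissue was 7.82, 5.74 and 4.43 in L4 EC, against 8.39, 3.94 and 4.23 in WT EC, so that replicate 1 was high in both genotypes. Markers of dividing cells (4 genes) averaged 7.19, 4.96 and 7.92 in L4 EC, against 7.49, 7.30 and 3.56 in WT EC. The 7 EC markers averaged 4.31 to 5.06 in L4 EC and 4.45 to 5.11 in WT EC, with 3.81 to 4.58 on the S (stele) arrays, and the ferric reductase gene FRO1 (2.02 to 2.32 in L4 EC) was under the lower quartile on each of the 6 EC arrays. The 4 S markers averaged 5.59 to 6.29 in L4 EC and 6.46 to 6.52 in WT EC, and 5.61 to 6.88 on the S arrays. These lists did not set the sectors apart, and their part in the results below was not tested. Fewer cells of a type and less RNA per cell cannot be told apart in such samples.

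More genes had lower than higher values in transgenic plants with all arrays, and the split was even without L4 EC replicate 2. Limma called 0 of 5080 probe sets (0%) at an adjusted p under 0.05 (Benjamini-Hochberg) with at least a 1.2-fold difference, and the smallest adjusted p was 0.0597. Leaving out WT EC replicate 1 gave 5 calls, all lower, and leaving out L4 EC replicate 1 gave 2. Array weights, whose estimation did not converge, gave 67. Past the unadjusted threshold, that is a p under 0.05 with at least a 1.2-fold difference, there were 522. Of these, 111 were higher (2.19%) and 411 lower (8.09%) in L4 EC. Without L4 EC replicate 2 the unadjusted threshold was passed by 251 higher (4.94%) and 253 lower (4.98%) probe sets. In both settings 78 higher and 217 lower ones passed. The median change of all probe sets tested was -0.33 with all arrays and -0.044 without this array, and 81.4% kept their sign. Negative changes made up 64.4% with all arrays and 52.3% without it, the shares to set beside the counts of negative changes in the gene lists below. The mean of 1 group was under the level filter for 42 of the 411 lower probe sets (in L4 EC) and for 14 of the 111 higher ones (in WT EC). These passed the filter only through the group with the higher values. Among the genes named below, ERF2, ETR6, ACO5, IAA2, LKT1 and THT7-1 were of this kind, each with its L4 EC mean under the filter. The L4 EC mean of abz1 was under the filter too, but that gene was not past the unadjusted threshold.

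All 3 L4 EC arrays lay above all 3 WT EC arrays for 3.92% of the probe sets and below them for 11.5%. With L4 EC replicates 1 and 3 alone these shares were 15.0% and 14.8%, so that the excess of lower values was not seen with those arrays.

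**Figure D2:**
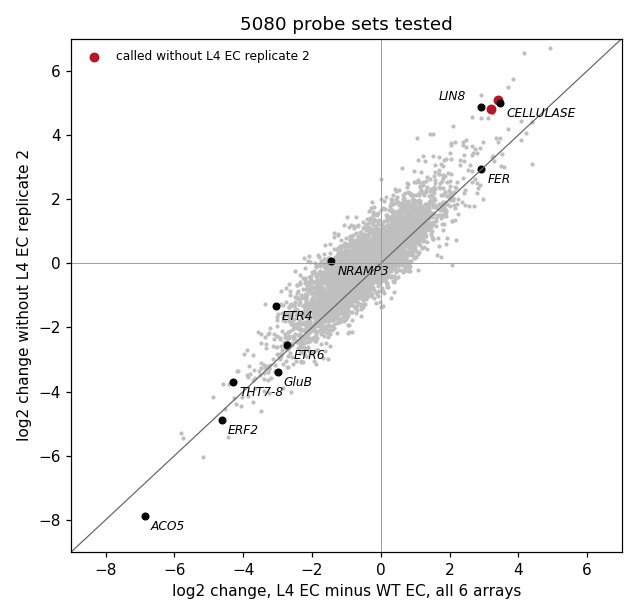
Log2 change of the 5080 probe sets tested (L4 EC minus WT EC) with all 6 arrays (horizontal axis) and without L4 EC replicate 2 (vertical axis). The diagonal marks equal changes, most points lie above it, and red points are the 2 probe sets called without that array.

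Leaving out L4 EC replicate 2 gave 2 calls (0.0394% of those tested), both higher in L4 EC and neither attached to a gene symbol. Their WT EC means of 2.41 and 3.06 were under the level filter, so that both were tested only because of their L4 EC values. The first had log2 values of 6.61, 2.40 and 7.82 in L4 EC, against 2.41, 2.37 and 2.44 in WT EC. It was high on L4 EC replicates 1 and 3, and replicate 2 was at the level of the wild type. Its change was 4.81 (standard error 0.43, adjusted p = 0.0028) without that array and 3.20 (standard error 1.04, adjusted p = 0.409) with it. The second had 7.79, 3.10 and 8.51 in L4 EC, against 3.06, 3.32 and 2.81 in WT EC, the same pattern by array. Its change was 5.09 (standard error 0.54, adjusted p = 0.00651) without that array and 3.40 (standard error 1.12, adjusted p = 0.409) with it. Among probe sets without a symbol, the one with the smallest p with all arrays had log2 values of 3.78, 3.54 and 3.27 in L4 EC, against 7.85, 7.91 and 8.41 in WT EC. The 3 arrays of each group were close together and far from the other group. Its change was -4.53 (standard error 0.63, adjusted p = 0.0597) and -4.53 (standard error 0.72, adjusted p = 0.085) without L4 EC replicate 2. On the higher side, the smallest p of such probe sets belonged to one with 5.65, 5.47 and 5.83 in L4 EC, against 3.48, 3.46 and 4.05 in WT EC, again with no overlap. Its change was 1.99 (standard error 0.41, adjusted p = 0.304) and 2.08 (standard error 0.44, adjusted p = 0.206) without that array. These probe sets too had 1 group mean under the level filter, 3.53 in L4 EC for the lower one and 3.66 in WT EC for the higher one.

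Among ethylene genes ERF2, ETR6 and ACO5 had the smallest p, all with lower values in transgenic plants, and no member was called with all arrays or without L4 EC replicate 2. The study chose ethylene synthesis among genes that differed in these samples, so its direction is not independent evidence. Its RT-qPCR of laser-captured EC found ACO4, ACO5 and the receptor Never-ripe lower in line 4. It also found ACO3 lower, in the EC but not in the S. A further RT-qPCR experiment, which included a second transgenic line, also found ACO4, ACO5 and Never-ripe lower at 5 µM Zn. The L4 EC means of ERF2, ETR6 and ACO5 (3.20, 2.86 and 3.52) were under the level filter, which these genes passed only through their WT EC values. ERF2, a transcription factor of the ethylene response factor family, had log2 values of 3.36, 3.75 and 2.48 in L4 EC, against 6.33, 8.20 and 8.92 in WT EC. All L4 EC arrays were lower than all WT EC arrays, and L4 EC replicate 3 was near the lower quartile. Its change was -4.62 (standard error 0.67, adjusted p = 0.0597), and -4.90 (standard error 0.74, adjusted p = 0.085) without L4 EC replicate 2. It averaged 3.20 ± 0.65 in L4 EC and 7.82 ± 1.34 in WT EC (SD, n = 3 each). Without WT EC replicate 1, the wild-type array with high green tissue markers, it was called at -5.36 (adjusted p = 0.00538).

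ACO5, one of the ACC oxidases that release ethylene, had 1.95, 5.56 and 3.06 in L4 EC, against 6.58, 12.02 and 12.6 in WT EC. Every L4 EC array was below every WT EC array, and WT EC replicate 1 was far below the other wild-type arrays. The change was -6.87 (standard error 1.53, adjusted p = 0.304) and -7.88 (standard error 1.64, adjusted p = 0.206) without L4 EC replicate 2. Without WT EC replicate 1 it was called at -8.77 (adjusted p = 0.0223). L4 EC replicate 1 was under the lower quartile, which leaves the size uncertain. ACO4, another ACC oxidase, had 11.03, 10.5 and 8.59 in L4 EC, against 9.76, 12.2 and 11.6 in WT EC, and the groups overlapped. Its change was -1.14 with all arrays and -1.38 without L4 EC replicate 2. Of the 14 genes of ethylene synthesis measured, 7 were tested, 5 of them with a negative change in either setting, which is near the share over all probe sets with all arrays, and ACO5 alone was past the unadjusted threshold in both settings. Their median change was -0.83, or -0.80 without L4 EC replicate 2, against -0.33 and -0.044 over all probe sets tested. The other 7 were under the level filter, and the median over all 14 was -0.068. E8, an ACC oxidase relative of ripening fruit that the study lists as ACO3, was among them, with 2.59 to 2.75 in L4 EC and 2.56 to 2.82 in WT EC. These values lay near the lower quartile, so the arrays could not show whether it was lower, as RT-qPCR found.

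The values of several ethylene receptor and signalling genes depended on L4 EC replicate 2. The receptor gene ETR6 had log2 values of 3.69, 2.52 and 2.35 in L4 EC, against 4.78, 6.14 and 5.78 in WT EC. The groups did not overlap, and L4 EC replicates 2 and 3 were near the lower quartile. Its change was -2.72 (standard error 0.60, adjusted p = 0.304) and -2.55 (standard error 0.67, adjusted p = 0.288) without L4 EC replicate 2. ETR4, also a receptor gene, had 8.24, 3.57 and 9.21 in L4 EC, against 9.10, 10.4 and 10.7 in WT EC. On L4 EC replicate 2 the gene was far below the other arrays, and the change was -3.06 with all arrays and -1.34 without L4 EC replicate 2. ETR2 behaved in a similar way, with 7.36, 3.54 and 5.84 in L4 EC, against 7.78, 7.94 and 8.56 in WT EC and a change of -2.51 with all arrays and -1.50 without L4 EC replicate 2. EIL2, an EIN3-like transcription factor, had 10.7, 10.3 and 9.89 in L4 EC, against 11.3, 11.6 and 12.2 in WT EC. Here L4 EC replicate 2 was between the other L4 EC arrays, and the change was -1.39 (standard error 0.46, adjusted p = 0.409) and -1.39 (standard error 0.51, adjusted p = 0.478) without it. For the receptor Never-ripe (LOC544279, also called ETR3) the values were 9.21, 4.49 and 9.54 in L4 EC, against 9.26, 9.27 and 9.56 in WT EC. L4 EC replicate 2 alone was low, and the change was -1.61 with all arrays and 0.016 without L4 EC replicate 2. So the lower Never-ripe mRNA of the study's RT-qPCR was not seen on L4 EC replicates 1 and 3. Of 16 genes measured 14 were tested. With all arrays 12 were negative, and 11 without that array. With all arrays 6 were past the unadjusted threshold, all lower (ETR2, ETR4, ETR6, EIL2, EIL3 and EIL4), and the first 4 of these without that array. The median was -1.40 with all arrays and -0.56 without it.

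**Figure D3:**
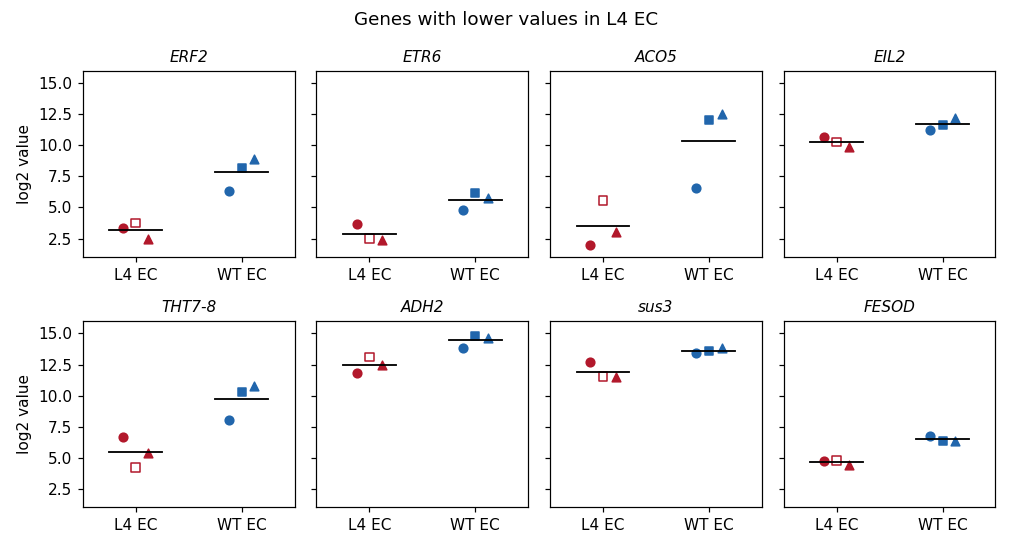
Log2 value (vertical axis) of 8 genes on each L4 EC array (red) and each WT EC array (blue), with circles for replicate 1, squares for replicate 2 and triangles for replicate 3, the open square being L4 EC replicate 2, and a line at the group mean. All L4 EC arrays lie below all WT EC arrays for each gene.

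Among the ethylene response factors, JERF3 and JERF1, which also respond to jasmonate, were below the wild type on all L4 EC arrays. JERF3 had 10.8, 10.1 and 9.63 in L4 EC, against 11.9, 11.4 and 11.6 in WT EC, and its change was -1.45 with all arrays and -1.41 without L4 EC replicate 2. JERF1 had 11.4, 10.1 and 11.2 in L4 EC, against 11.5, 12.3 and 12.2 in WT EC, and its change was -1.10 with all arrays and -0.69 without L4 EC replicate 2. For both genes the groups were separate by small distances. PTI6, a factor first known from disease resistance, had 7.80, 3.72 and 3.003 in L4 EC, against 7.54, 6.39 and 7.83 in WT EC, with L4 EC replicate 1 inside the wild-type range and a change of -2.41 with all arrays and -1.85 without L4 EC replicate 2. Of 11 factors measured 8 were tested and 7 were negative in either setting. Past the unadjusted threshold were 3 with all arrays (ERF2, JERF3 and JERF1) and 1, ERF2, without L4 EC replicate 2. The median was -1.56 and -1.38.

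CBF1, an AP2-type factor of the cold response related to the ERF family, had 7.63, 2.54 and 2.22 in L4 EC, against 7.70, 7.85 and 9.27 in WT EC. L4 EC replicate 1 was just under the lowest WT EC array, and replicates 2 and 3 were near the lower quartile. Its change was -4.14 (standard error 1.21, adjusted p = 0.409) and -3.35 (standard error 1.30, adjusted p = 0.48) without L4 EC replicate 2. Without L4 EC replicate 1 it was called at -5.89 (adjusted p = 0.0341). It was the only 1 of 4 CBF and DREB genes to pass the level filter.

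FER had the smallest p of the named genes with higher values, while transporters of the metal list depended on L4 EC replicate 2. The gene had log2 values of 6.75, 7.95 and 9.23 in L4 EC, against 3.11, 6.08 and 5.97 in WT EC. Every L4 EC array was above every WT EC array, and WT EC replicate 1 was the lowest. Its change was 2.92 (standard error 0.83, adjusted p = 0.377) and 2.93 (standard error 0.96, adjusted p = 0.403) without L4 EC replicate 2, and it averaged 7.98 ± 1.24 in L4 EC and 5.06 ± 1.68 in WT EC (SD, n = 3 each). By the study's own account the FER probe set also recognises other sequences, so its signal cannot be assigned to FER alone. The study's RT-qPCR went the other way, with FER mRNA of line 4 below the wild type in both root sectors. The study took RT-qPCR as valid where it differed from the arrays. The probe set of Nramp2, a metal transporter of the NRAMP family, also recognises other sequences by that account. RT-qPCR in the study found this gene slightly lower in the EC of line 4. On the arrays Nramp2 had 6.93, 5.94 and 6.50 in L4 EC, against 6.10, 6.16 and 6.09 in WT EC. The value of L4 EC replicate 2 was below the wild type and the other L4 EC arrays above it, and the change was 0.34 with all arrays and 0.61 without L4 EC replicate 2. NRAMP3, a transporter of internal membranes, had 8.57, 3.29 and 7.03 in L4 EC, against 6.48, 8.39 and 8.31 in WT EC. The lowest array by far was L4 EC replicate 2, and the change was -1.43 with all arrays and 0.072 without L4 EC replicate 2. The same array alone was low for OPT1, an oligopeptide transporter gene, whose change was -0.77 with all arrays and 0.38 without L4 EC replicate 2. NRAMP1 was under the level filter, with 2.37, 2.54 and 2.39 in L4 EC, against 2.33, 3.45 and 3.67 in WT EC. Of the 6 genes of iron and metal uptake measured 4 were tested, 2 of them negative with all arrays and none without L4 EC replicate 2, and FER was the only one past the unadjusted threshold in either setting. The median was -0.21 and 0.49.

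Metal binding proteins were mixed. LEMT1, a metallothionein that binds metal ions through cysteines, had 13.7, 12.96 and 10.5 in L4 EC, against 14.2, 14.00 and 14.4 in WT EC. It was below the wild type on all L4 EC arrays, lowest on replicate 3, with a change of -1.81 with all arrays and -2.10 without L4 EC replicate 2. CCH, a copper chaperone, had 10.2, 10.5 and 9.58 in L4 EC, against 10.5, 11.6 and 12.1 in WT EC. Only L4 EC replicate 2 overlapped the lowest WT EC array, and the change was -1.30 with all arrays and -1.50 without L4 EC replicate 2. All 9 genes of this list were tested, and 6 were negative with all arrays, near the share over all probe sets, and 7 without L4 EC replicate 2. Past the unadjusted threshold were 1 lower with all arrays (LEMT1) and 2 without L4 EC replicate 2 (LEMT1 and CCH), and the medians were -0.20 and -0.38.

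Scavenging of reactive oxygen had a lower iron superoxide dismutase value. FESOD, which converts superoxide in plastids, had 4.72, 4.77 and 4.39 in L4 EC, against 6.75, 6.35 and 6.32 in WT EC. The arrays within a group were close together and the groups far apart. Its change was -1.85 (standard error 0.45, adjusted p = 0.304) and -1.92 (standard error 0.49, adjusted p = 0.281) without L4 EC replicate 2, and a second probe set of the gene was at -3.04 (adjusted p = 0.54) and -2.61 (adjusted p = 0.718) without that array. CAT2, a catalase gene, had 9.96, 7.38 and 10.1 in L4 EC, against 10.7, 11.98 and 11.9 in WT EC. The lowest array was L4 EC replicate 2, and the change was -2.40 with all arrays and -1.51 without L4 EC replicate 2. Of 13 scavenging genes 12 were tested and 8 were negative in either setting, near the share over all probe sets with all arrays. Lower past the unadjusted threshold were 2 with all arrays (FESOD and CAT2) and 1 (FESOD) without that array, and the medians were -0.15 and -0.34.

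Cell wall genes had members on both sides. XTH16, an enzyme that cuts and rejoins xyloglucan, had 13.8, 13.4 and 13.7 in L4 EC, against 12.9, 12.8 and 10.9 in WT EC. The groups were separate, with L4 EC above WT EC, of which replicate 3 was the lowest. The change was 1.42 (standard error 0.59, adjusted p = 0.463) and 1.54 (standard error 0.66, adjusted p = 0.492) without L4 EC replicate 2, and other probe sets of the gene were at 1.25 and 0.60, or 1.67 and 1.18 without it. XTH5, of the same family, had 8.53, 9.08 and 6.11 in L4 EC, against 8.95, 10.8 and 11.4 in WT EC. L4 EC replicate 3 was the lowest, replicate 2 overlapped the wild type, and the change was -2.47 with all arrays and -3.05 without L4 EC replicate 2. XTH3 overlapped between the groups, with a change of -1.38 with all arrays and -0.53 without L4 EC replicate 2. Expansins loosen the wall, and their values spread widely within a group. EXPA8 had 6.94, 3.21 and 9.23 in L4 EC, against 2.92, 8.32 and 3.04 in WT EC, high on 2 L4 EC arrays and 1 WT EC array, and its change was 1.70 with all arrays and 3.32 without L4 EC replicate 2. EXP2 had 12.7, 11.1 and 10.1 in L4 EC, against 11.8, 8.43 and 3.86 in WT EC, and the change was 3.25 with all arrays and 3.33 without L4 EC replicate 2. The change of exp18 was -0.52 with all arrays and -0.89 without L4 EC replicate 2, with overlapping groups. By the study's RT-qPCR, both EXPA8 and exp18 were strongly lower in the EC of line 4. For EXPA8 the arrays thus went the other way, and the study took RT-qPCR as valid in such cases. Of the 24 expansin, extensin and xyloglucan genes 19 were tested and 11 were positive in either setting. Past the unadjusted threshold were 1 higher and 1 lower with all arrays, and 2 higher (exp11 and XTH16) and 1 lower (XTH5) without L4 EC replicate 2. The medians were 0.17 and 0.20.

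Genes of pectin and glucan hydrolysis had a median of 0.030 with all arrays and 0.38 without L4 EC replicate 2. CELLULASE had 7.87, 4.72 and 10.7 in L4 EC, against 3.73, 7.12 and 2.05 in WT EC. The arrays of both groups scattered, and without L4 EC replicate 2 the others were above the wild type. Its change was 3.47 with all arrays and 5.001 without L4 EC replicate 2. The beta-galactosidase genes TBG6 and TBG3 had changes of opposite sign, at 1.40 with all arrays and 1.50 without L4 EC replicate 2 for TBG6, and at -2.19 with all arrays and -1.44 without L4 EC replicate 2 for TBG3. The groups overlapped for both. Of 27 genes 15 were tested. TBG3 alone was past the unadjusted threshold with all arrays, and 2 genes, Cel3 and CELLULASE, both higher, without that array. AGP-1, an arabinogalactan protein of the wall surface, had 14.9, 14.6 and 15.3 in L4 EC, against 14.4, 14.2 and 12.6 in WT EC. Every L4 EC array was above every WT EC array, and the change was 1.18 (standard error 0.53, adjusted p = 0.476) and 1.36 (standard error 0.58, adjusted p = 0.492) without L4 EC replicate 2.

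Tyramine hydroxycinnamoyl transferases, which make phenolic amides that are deposited in cell walls, had negative changes, and a gene of chlorogenic acid synthesis had a positive one, none of them called. THT7-8 had 6.69, 4.23 and 5.36 in L4 EC, against 8.05, 10.3 and 10.8 in WT EC. All L4 EC arrays were below all WT EC arrays, and L4 EC replicate 2 was the lowest. Its change was -4.30 (standard error 1.03, adjusted p = 0.304) and -3.70 (standard error 1.12, adjusted p = 0.349) without that array. THT7-1 had 3.54, 4.23 and 2.86 in L4 EC, against 4.57, 5.54 and 6.80 in WT EC, again without overlap, and its change was -2.09 with all arrays and -2.43 without L4 EC replicate 2. THT1-3 had 4.37, 6.59 and 4.52 in L4 EC, against 5.59, 7.96 and 8.42 in WT EC, and only L4 EC replicate 2 was inside the wild-type range. Its change was -2.17 with all arrays and -2.88 without L4 EC replicate 2. These genes are near copies of each other, and their probe sets may share signal. The study picked THT7-8 and THT7-1 by their array changes, and its RT-qPCR also found both lower in line 4. The hqt gene had 9.71, 7.39 and 9.92 in L4 EC, against 6.63, 7.87 and 7.21 in WT EC. L4 EC replicates 1 and 3 were above the wild type and replicate 2 was within it, and the change was 1.77 with all arrays and 2.58 without L4 EC replicate 2. Of 7 genes 4 were tested, 3 of them negative. Past the unadjusted threshold were 2 lower with all arrays, and 3 lower and 1 higher without that array. The medians were -2.13 and -2.66, and over all 7 genes measured -0.65 and -0.71.

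Sucrose use included lower sus3 and, on part of the arrays, higher LIN8. The sucrose synthase gene sus3, also a marker of the S, had 12.7, 11.5 and 11.5 in L4 EC, against 13.4, 13.6 and 13.8 in WT EC. The groups did not overlap. Its change was -1.73 (standard error 0.43, adjusted p = 0.313) and -1.54 (standard error 0.46, adjusted p = 0.343) without L4 EC replicate 2. LIN8, a cell wall invertase, had 9.64, 3.76 and 9.65 in L4 EC, against 3.82, 6.91 and 3.54 in WT EC. It was high on L4 EC replicates 1 and 3, while replicate 2 was at the level of WT EC replicates 1 and 3. The change was 2.93 (standard error 1.52, adjusted p = 0.497) with all arrays and 4.89 (standard error 1.12, adjusted p = 0.23) without L4 EC replicate 2. Of 20 genes 15 were tested. With all arrays 9 were negative and 1 was past the unadjusted threshold, while without that array 9 were positive, 2 of them past that threshold (LIN8 and hxk1), and sus3 was lower past it. The median was -0.46 and 0.54, so that its sign depended on that array.

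**Figure D4:**
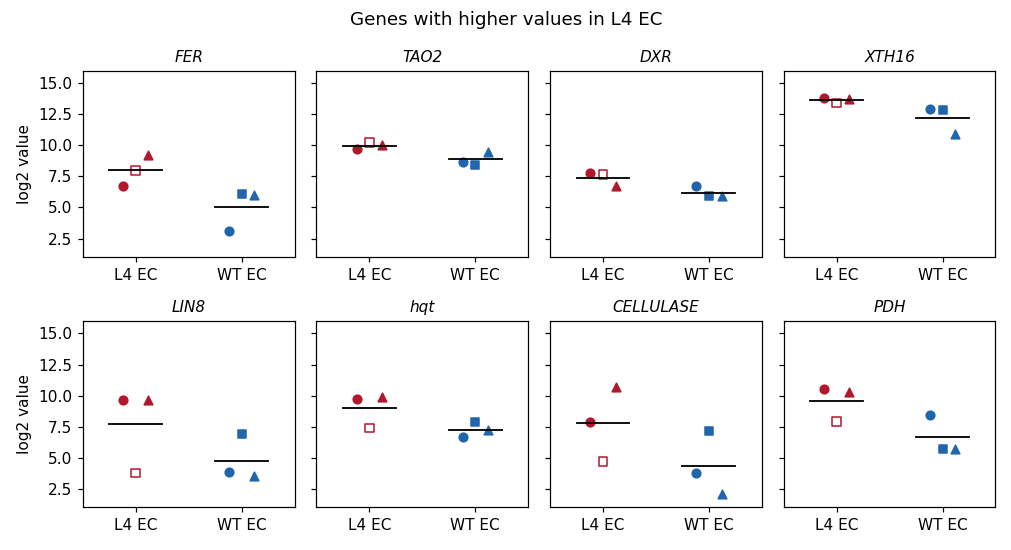
Log2 value (vertical axis) of 8 genes on each L4 EC array (red) and each WT EC array (blue), with symbols for the replicates and the group mean drawn as for the genes with lower values. For LIN8, hqt, CELLULASE and PDH the open square, L4 EC replicate 2, lies within or near the wild-type values, while FER, TAO2, DXR and XTH16 are above the wild type on all L4 EC arrays.

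In the list of nutrient and water transport, which does not hold every transport gene on the array, the genes that passed the level filter had no positive change with all arrays. LKT1, a potassium channel of root uptake, had 4.38, 3.85 and 3.68 in L4 EC, against 4.18, 7.39 and 8.28 in WT EC. WT EC replicate 1 was at the level of the transgenic arrays, and the change was -2.65 with all arrays and -2.59 without L4 EC replicate 2. PT1, a phosphate transporter and a marker of the EC, had 4.86, 6.24 and 4.82 in L4 EC, against 5.94, 7.55 and 7.67 in WT EC. Replicate 2 of L4 EC overlapped the lowest WT EC array, and the change was -1.75 (standard error 0.65, adjusted p = 0.427) and -2.21 (standard error 0.66, adjusted p = 0.347) without it. PT2, a second phosphate transporter, was under the level filter, with 2.21, 2.42 and 2.19 in L4 EC, against 2.86, 3.65 and 4.86 in WT EC, and its L4 EC values were near or under the lower quartile. Of 14 nutrient and water transport genes 9 were tested. All 9 were negative with all arrays and 8 without L4 EC replicate 2, of which 2 were past the unadjusted threshold in either setting. The medians were -1.06 and -0.49, and over all 14 genes measured -0.48 and -0.34. The proton pump gene LHA1 and the calcium pump gene LCA1 were below the wild type on all L4 EC arrays, with changes of -1.06 and -1.81, and -1.05 and -0.78 without that array. None of the 3 pump genes was past the unadjusted threshold.

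Genes known from low oxygen had negative changes in transgenic plants, and none was called. ADH2, the alcohol dehydrogenase of fermentation, had 11.8, 13.1 and 12.4 in L4 EC, against 13.8, 14.8 and 14.7 in WT EC. No L4 EC array reached the lowest WT EC array. Its change was -1.99 (standard error 0.52, adjusted p = 0.326) and -2.32 (standard error 0.53, adjusted p = 0.23) without L4 EC replicate 2. For abz1, a bZIP factor of the anaerobic response, the values were 3.07, 2.75 and 3.38 in L4 EC, against 2.37, 7.69 and 8.55 in WT EC. WT EC replicate 1 was as low as the transgenic arrays, and the change was -3.13 with all arrays and -2.97 without L4 EC replicate 2. The haemoglobin gene GLB2 was at -0.59 with all arrays and -0.43 without L4 EC replicate 2, with overlapping groups. All 3 members were negative, and ADH2 alone was past the unadjusted threshold.

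Among genes of defence, GluB, a beta-1,3-glucanase, had 9.55, 11.7 and 11.5 in L4 EC, against 13.3, 14.1 and 14.4 in WT EC. The groups were separate, and L4 EC replicate 1 was the lowest. Its change was -2.997 (standard error 0.88, adjusted p = 0.409) and -3.38 (standard error 0.98, adjusted p = 0.331) without L4 EC replicate 2. NP24-I, an osmotin-like protein, had 11.9, 13.2 and 13.9 in L4 EC, against 13.9, 14.3 and 14.5 in WT EC. L4 EC replicate 3 was close to WT EC replicate 1, and the change was -1.27 with all arrays and -1.38 without L4 EC replicate 2. CHI3, an acidic chitinase, went the other way, with 5.83, 9.29 and 7.24 in L4 EC, against 6.78, 3.48 and 3.94 in WT EC and a change of 2.72 with all arrays and 1.80 without L4 EC replicate 2. The highest array was L4 EC replicate 2, and the groups overlapped. Of 12 pathogenesis-related genes 8 were tested and 6 were negative, with 1 higher (CHI3) and 2 lower (GluB and NP24-I) past the unadjusted threshold with all arrays and 1 lower (GluB) without L4 EC replicate 2. The medians were -1.04 and -1.08, and over all 12 genes measured -0.13 and -0.32. MYC2, the bHLH factor of jasmonate signalling, had 8.86, 6.89 and 8.71 in L4 EC, against 10.01, 9.24 and 10.4 in WT EC. It was below the wild type on all L4 EC arrays, with a change of -1.72 with all arrays and -1.09 without L4 EC replicate 2. It was the 1 gene of 10 tested in the jasmonate list past the unadjusted threshold in either setting, and the medians of the list were -0.53 and -0.64.

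Other transcription factors that passed the level filter had mostly negative changes. The bZIP factor LOC543600 (NIF1, of the TGA family) had 7.80, 6.76 and 7.28 in L4 EC, against 8.84, 9.67 and 10.3 in WT EC. The groups were separate, with L4 EC below WT EC. Its change was -2.34 (standard error 0.54, adjusted p = 0.304) and -2.08 (standard error 0.58, adjusted p = 0.304) without L4 EC replicate 2. CIP2b, THOX2, a homeobox gene, and WRKYIId-1, of the WRKY family, had changes of -1.52, -1.60 and -3.02, and of -1.16, -1.97 and -1.94 without that array. Of 55 factors measured 33 were tested. With all arrays 27 were negative and 24 without that array, with 4 lower past the unadjusted threshold in either setting and no higher one. Both settings held LOC543600 and THOX2, to which WRKYIId-1 and CIP2b were added with all arrays, and T12 and NITF without L4 EC replicate 2. The medians were -0.75 and -0.53. Over all 55 factors measured they were -0.21 and -0.14, against -0.33 and -0.044 over all probe sets tested. IAA2, an auxin-induced repressor of auxin signalling, had 2.98, 4.28 and 3.69 in L4 EC, against 5.35, 6.68 and 8.13 in WT EC. The groups did not overlap, and the change was -3.07 with all arrays and -3.39 without L4 EC replicate 2. It was the 1 gene past the unadjusted threshold among 6 auxin genes tested, 5 of them negative, and the medians were -1.42 and -0.99. The small heat shock gene HSP17-6 had 5.19, 5.89 and 4.47 in L4 EC, against 6.21, 7.37 and 6.83 in WT EC and a change of -1.62 with all arrays and -1.98 without L4 EC replicate 2. It was the 1 of 5 heat shock genes tested that was past the unadjusted threshold.

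In the lists of cell division, kinases and isoprenoid synthesis few genes stood out. None of 11 cell cycle genes tested was past the unadjusted threshold, with medians of 0.25 and 0.72, and the 4 dividing cell markers given above are among them. None of 9 protein kinases was past it with all arrays and 1, SNF1, higher without L4 EC replicate 2, and the medians were -0.69 and 0.023. DXR, an enzyme of plastid isoprenoid synthesis, had 7.75, 7.67 and 6.73 in L4 EC, against 6.69, 5.92 and 5.88 in WT EC. The groups were separate, with L4 EC above WT EC by a small distance. Its change was 1.22 (standard error 0.49, adjusted p = 0.463) and 1.08 (standard error 0.54, adjusted p = 0.546) without L4 EC replicate 2. The carotenoid enzyme NSY was at -2.67 with all arrays and -1.36 without L4 EC replicate 2, and L4 EC replicate 2 was its lowest array. Of 14 isoprenoid genes tested 11 were negative with all arrays and 7 without that array. DXR (higher) and NSY (lower) were past the unadjusted threshold with all arrays and none without L4 EC replicate 2, and the medians were -0.49 and 0.020.

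**Figure D5:**
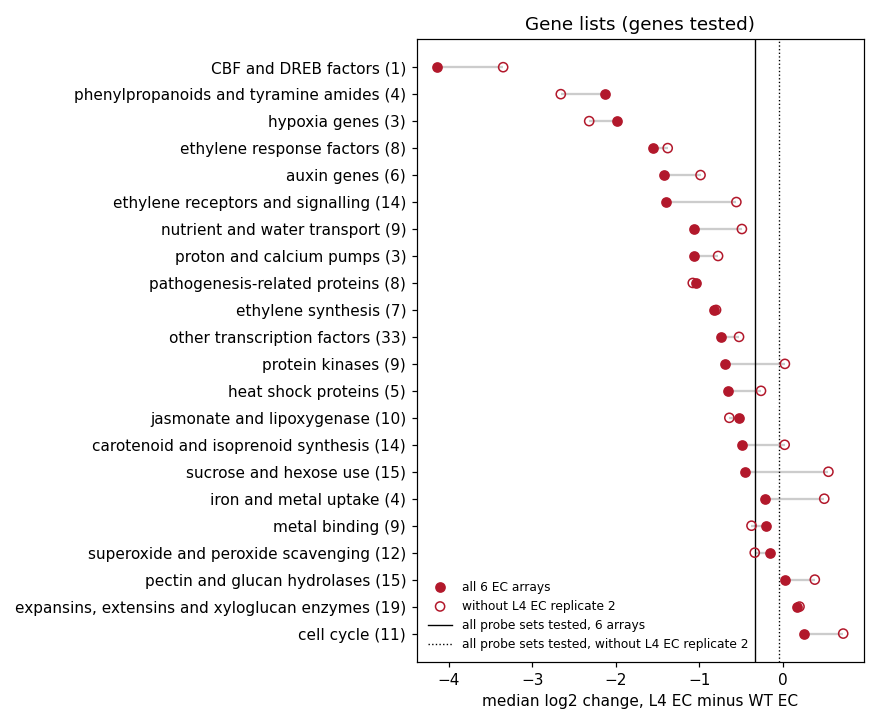
Median log2 change (L4 EC minus WT EC, horizontal axis) of the genes tested in each of 22 lists, with all 6 arrays (filled) and without L4 EC replicate 2 (open), the number of genes tested standing after each name. Lines mark the median of all probe sets tested, -0.33 with all arrays and -0.044 without that array. The medians of sucrose use, metal uptake, kinases and isoprenoids change sign.

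The remaining named genes with the smallest p had these values. TAO2, an aldehyde oxidase gene, had 9.68, 10.2 and 10.04 in L4 EC, against 8.65, 8.45 and 9.49 in WT EC. Every L4 EC array was above every WT EC array, by a small distance, and the change was 1.11 with all arrays and 0.99 without L4 EC replicate 2. PDH, a proline dehydrogenase gene, had 10.6, 7.93 and 10.3 in L4 EC, against 8.47, 5.68 and 5.72 in WT EC. On L4 EC replicate 2 the gene was below WT EC replicate 1, and the change was 2.96 with all arrays and 3.79 without L4 EC replicate 2. LOC543809 (INS-1P) had 11.6, 9.42 and 12.6 in L4 EC, against 9.62, 9.76 and 8.34 in WT EC, with L4 EC replicate 2 inside the wild-type range. Its change was 1.95 (standard error 0.74, adjusted p = 0.433) and 2.83 (standard error 0.58, adjusted p = 0.206) without that array. LOC544060, for which no role is given, was at 2.80 with all arrays and 3.46 without L4 EC replicate 2. On the lower side, LOC544070 had 5.70, 7.97 and 4.94 in L4 EC, against 9.99, 11.5 and 12.6 in WT EC. All L4 EC arrays were far below the wild type, with replicate 2 the highest of them. Its change was -5.17 (standard error 0.97, adjusted p = 0.291) and -6.05 (standard error 0.94, adjusted p = 0.085) without that array, and a second probe set was at -4.43, or -5.43 without it. LOC778326 had 9.61, 7.74 and 8.03 in L4 EC, against 10.1, 11.9 and 11.8 in WT EC, without overlap, and its change was -2.81 with all arrays and -2.45 without L4 EC replicate 2.

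The changes in the EC were set beside those in the S of the same genotypes, measured on the other 6 arrays, to ask whether they differed between the sectors. WT S replicate 3 and L4 S replicate 3 had hybridisation controls of 12.4 and 11.9, against 9.65 to 10.3 on the other S arrays. Their SD was 3.32 and 3.34, against 3.45 to 3.48. Both stayed in the fits below. Arrays with the same replicate number were assumed to share a root pool. In the fit with root pools as blocks, 0 of 5080 differences were called by limma (0%), and the smallest adjusted p was 1.00. Past the unadjusted threshold were 111, of which 12 were higher and 99 lower in the EC. With replicate 2 of L4 left out in both sectors, since its S array alone cannot enter a difference within pools, 0 were called, the smallest adjusted p was 1.00, and 55 higher and 62 lower were past the unadjusted threshold. Of the genes with lower EC values, ERF2, ACO5 and ETR6 had changes of -4.34, -7.53 and -3.15 in the S, and of -4.09, -7.26 and -3.42 without replicate 2. Their differences between the sectors were -0.28 (standard error 0.97, adjusted p = 1.00), 0.67 (standard error 1.53, adjusted p = 1.00) and 0.43 (standard error 0.74, adjusted p = 1.00), and without replicate 2 they were -0.81 (standard error 1.02, adjusted p = 1.00), -0.62 (standard error 1.40, adjusted p = 1.00) and 0.87 (standard error 0.75, adjusted p = 1.00). THT7-8 was at -0.79 in the S, and the difference between the sectors was -3.51 (standard error 1.58, adjusted p = 1.00), or -2.11 (standard error 1.41, adjusted p = 1.00) without replicate 2. FESOD was at 0.77 in the S, with a difference of -2.62 (standard error 0.74, adjusted p = 1.00), or -2.56 (standard error 0.83, adjusted p = 1.00) without replicate 2. FER was at 4.28 in the S, with a difference of -1.36 (standard error 0.98, adjusted p = 1.00), or -1.62 (standard error 1.12, adjusted p = 1.00) without replicate 2. A p above the threshold does not show that the sectors were alike.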

How the data were processed

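RNA of laser-captured root sectors was amplified and hybridised to 12 GeneChip Tomato Genome Arrays, 3 per genotype and sector. The values that the authors deposited are log2 signals per probe set. Their summarisation and normalization are not given in the sources used here, so a shift of a whole array may come from that step. Samples were grouped by the labels, and no value column was unused. Within a genotype, EC and S arrays sharing a replicate number were treated as 1 root pool. The sample titles give only the number, and this pairing was assumed and not checked. The green tissue markers averaged 7.82 on L4 EC replicate 1 and 4.63 on L4 S replicate 1. On WT EC replicate 1 and WT S replicate 1 they averaged 8.39 and 8.

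The 5080 probe sets whose mean over the 6 EC arrays reached 4 were fitted by lmFit and eBayes of limma 3.58.1, under R 4.3.3. All 12 arrays entered the fit with 1 mean per group (8 residual degrees of freedom, 7 without L4 EC replicate 2). The difference between the EC and the S was fitted with the root pool as a fixed block (4 residual degrees of freedom). The Benjamini-Hochberg adjustment covered all 5080 p-values, and a call needed an adjusted p under 0.05 and at least a 1.2-fold change, the thresholds of the study. Only the thresholds were taken from the study, which reported many genes in the EC with them. Its level filter, test and processing may differ from those used here.

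The platform annotation gave 909 probe sets 1 symbol, 0 several, and 9192 none, and 885 matched a RefSeq gene identifier. Where a gene had several probe sets, the one highest on average over the 12 arrays stands for it. The genes named are the 12 of each direction with the smallest p, up to 4 per list with the smallest p, the root genes the study names and the sector markers, and at most 2 probe sets of each direction without a symbol. CEVI57 and the probe sets called under an alternative were chosen with their values in view. The members and lists were chosen with earlier results of these data known. The independent experiments are separate pools of roots. The p-values of the EC fit measure the spread between pools within the groups of both genotypes and sectors together, with only 1 transgenic line. Each root pool entered that fit with its EC and its S array, treated as independent. With only the 6 EC arrays (4 residual degrees of freedom) 438 probe sets were past the unadjusted threshold, and with the root pool as a random block 524. The functions were tested on simulated arrays.

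Alternatives were each EC array left out, quantile normalization, median centring, other level filters, only the 6 EC arrays, the replicate number as a block, the root pool as a random block, trend and robust moderation, array weights and other fold minimums. Same-numbered L4 EC and WT EC arrays were checked for shared deviations, which gave correlations of 0.29, -0.11 and -0.043 across probe sets. Differently numbered arrays gave -0.21 to 0.35. The highest of these were L4 EC replicate 3 with WT EC replicate 2 (0.349) and L4 EC replicate 2 with WT EC replicate 3 (0.205). Numbers were not taken to pair samples. The check cannot exclude pairing, because deviations from a mean of 3 arrays depend on each other. The values of L4 EC replicate 1 and WT EC replicate 1 correlated at 0.931. Within their own genotypes L4 EC replicate 1 was at 0.783 and 0.861, and WT EC replicate 1 at 0.86 and 0.802. What these replicate 1 arrays share across genotypes was not tested, and the main fit did not model it. Figures were drawn with matplotlib.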

Additional observations from a re-analysis of the deposited data

Results flagged for a closer look

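The 27 hybridisation control probe sets, which were outside the comparisons, had a higher mean log2 value on L4 EC replicate 2 (13.9) and on L4 EC replicate 3 (11.0) than on any WT EC array (9.97 to 10.5). Their part in the results was not tested. No named gene differed between the EC and the S by the test of the difference, and none had its L4 arrays wholly on opposite sides of the wild type in the 2 sectors. Groups of 3 arrays were not examined for single outlying values.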

How the results depend on the processing

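With all arrays 0 probe sets were called. Leaving out 1 EC array at a time gave 0 to 5 calls, which were 5 without WT EC replicate 1 (all lower, ERF2, ACO5, CEVI57 and 2 without a symbol), 2 without L4 EC replicate 1 (CBF1 lower and a probe set without a symbol higher) and 2 without L4 EC replicate 2. The last 2 were also called with the level filter taken over those 5 arrays. Quantile normalization and median centring each called 1, the probe set without a symbol that had the smallest p. Array weights, whose estimation did not reach convergence, gave 67 calls, 53 lower and 14 higher, and other alternatives called 0. The count past the unadjusted threshold was 522, with 219 to 798 without 1 array at a time and 1095 with array weights. Higher ones numbered 111, with 42 to 251 without 1 array, 223 after quantile normalization, 371 with array weights, 228 with no filter and 254 with the 5-array filter. Lower ones numbered 411, with 177 to 656 without 1 array, 724 with array weights and 256 with the 5-array filter. WT EC replicates 2 and 3 moved the count most among the wild-type arrays, to 273 and 219, and L4 EC replicate 1 to 798. With the replicate number as a block, 65 higher and 304 lower were past that threshold and 0 were called, but the numbers were not shown to pair the arrays. Separate groups numbered 199 above and 585 below. Without L4 EC replicate 2 they were 764 above, and with no filter 604 above. The 764 rest on fewer arrays, which are separate more often even without a difference. The median change over all probe sets was -0.33, with -0.49 to -0.044 without 1 array and -0.073 after quantile normalization. The causes were not tested.

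Of 769 alternatives for 70 named genes or probe sets, 5 turned the sign. Without L4 EC replicate 2 LOC544279 was at 0.016, NRAMP3 at 0.073 and OPT1 at 0.38, OPT1 was at 0.092 with array weights, and exp18 was at 0.0058 without L4 EC replicate 3. Without 1 array at a time the lowest values of these genes were -2.51, -2.57, -1.37 and -0.89. Another 26 passed the adjusted threshold that the full comparison did not. Of 198 alternatives for the medians of 22 lists, 17 turned the sign.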
